A study of Danio rerio with 24 samples.

Results

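The 10 genes described here encode inflammatory cytokines, regulators of cytokine signaling and proteins of the acute phase response: il1b (ENSDARG00000098700), tnfa (ENSDARG00000009511), cxcl8a (ENSDARG00000104795), nfkbiaa (ENSDARG00000005481), socs3a (ENSDARG00000025428), socs3b (ENSDARG00000026611), saa (ENSDARG00000045999), hamp (ENSDARG00000102175), stat3 (ENSDARG00000022712) and irg1l (ENSDARG00000062788). They were taken by gene symbol from a table of read counts for 31242 zebrafish genes. The larvae were klf9-/- mutants, a line made by CRISPR in the AB strain, or wildtype controls that shared grandparents with the mutants. The mutant allele lacks 2 bp of the first exon, which shifts the reading frame to an early stop codon. RNA was sequenced from whole larvae of both genotypes at 5 days post-fertilization, without any added agent, at 3 times of day: Zeitgeber time -3, 0 and +2.5 h, counted from lights on (ZT-3, ZT0 and ZT+2.5). The 24 samples were pools of 6 larvae, each from a dish of its own, with 4 klf9-/- and 4 wildtype pools at each time. Since whole larvae were used, fewer cells of a type and less RNA per cell cannot be told apart in any value below.

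Inflammatory cytokines such as interleukin 1 beta (il1b) and tumor necrosis factor (tnfa) act through the transcription factor NF-kB, and cytokines of the interleukin 6 family act through the kinases of the JAK family and the transcription factor Stat3. Both routes induce their own inhibitors in mammals: NF-kB activates the gene of IkB alpha (nfkbiaa in zebrafish), which holds NF-kB in the cytoplasm, and Stat3 activates SOCS3 (socs3a and socs3b), which blocks the receptor complex. The liver answers to the same cytokines with acute phase proteins, among them serum amyloid A (saa) and hepcidin (hamp), a peptide hormone that limits the export of iron from cells through ferroportin. Klf9 is a transcription factor whose gene is itself induced by glucocorticoids, hormones that restrain inflammation.

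For 2 of the 10 members, a target stretch of 100 bases was designed for a separate hybridization assay of the study (Nanostring), whose samples are not analysed here. The stretches are shown because they identify the transcripts of nfkbiaa and irg1l, and each is written 5′ to 3′ in the sense of the transcript, with the bases bound by the first of its paired probes in capitals.
nfkbiaa: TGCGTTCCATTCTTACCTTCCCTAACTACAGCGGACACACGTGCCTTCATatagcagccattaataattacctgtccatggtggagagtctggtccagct
irg1l: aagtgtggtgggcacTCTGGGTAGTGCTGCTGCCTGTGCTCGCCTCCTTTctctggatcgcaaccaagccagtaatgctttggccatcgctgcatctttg
The nfkbiaa stretch covers positions 560 to 659 of its transcript and the irg1l stretch positions 682 to 781. The first probe binds bases 1 to 50 of the nfkbiaa stretch and bases 16 to 50 of the irg1l stretch.

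Libraries held 41444609 to 64452247 counts, and levels are given in CPM, counts relative to the library total after TMM scaling between libraries. The first principal component of the 24 samples (PC1) took 21.7% of the variance, and PC1, which the study attributed to RNA extraction (the time in lysis buffer differed among the 4 replicates of a set), was a covariate of every edgeR test. A gene was called where its adjusted p did not exceed 0.1 and its log2 fold change reached 0.5 upward or downward, by edgeR's quasi-likelihood test with Benjamini-Hochberg adjustment over all genes tested, the test behind every adjusted p below unless another is named. The level of klf9 itself, for which the larvae were mutant, had a median of 18.1 CPM in the 12 klf9-/- pools (4.72 to 23.2) and of 48.9 CPM in the 12 wildtype pools (15.3 to 74.2), a log2 fold change of -1.51 (SE 0.156, adjusted p = 4.8e-07). At ZT+2.5 the klf9 ranges overlapped and the difference missed the threshold (log2 fold change -1.40, adjusted p = 0.11). Without wildtype replicate 1 of that time it was -0.94 (adjusted p = 0.058). In the RefSeq annotation (assembly GRCz12tu, another build than that of the counts), all 10 members lie on other chromosomes than klf9.

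In klf9-/- larvae, the hepcidin gene hamp was higher at every time of day by its mean, and il1b was higher over the 3 times together. These were 2 of the 8 members that could be tested over all time points, both higher, and no member was called lower. Among all 23158 genes tested in that comparison, 4.91% were called. The median log2 fold change was 0.07 over the 8 members and 0.01 over all genes tested. At single times, hamp was the sole member called at ZT0 and at ZT+2.5 (1 of 8 at each, against 3.43% and 2.28% of all genes tested), and 0 of 8 were called at ZT-3 (2.92% of all genes tested).

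The other 2 members were too weakly expressed to be tested. tnfa, which encodes tumor necrosis factor, had 0 to 2 counts in each library, 11 counts in all klf9-/- pools together and 6 in all wildtype pools, and was at 0 in 5 klf9-/- and 6 wildtype libraries. saa, which encodes serum amyloid A, had 0 to 8 counts in each library, with sums of 37 in klf9-/- and 55 in wildtype pools, and was at 0 in 1 library of each genotype. A count of 0 in a library allows a level of up to 3 counts, or 0.0451 to 0.0726 CPM here, counting error only. Both genes thus lay near the limit of detection in both genotypes, and no difference in either was detectable at this depth.

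**Figure D1:**
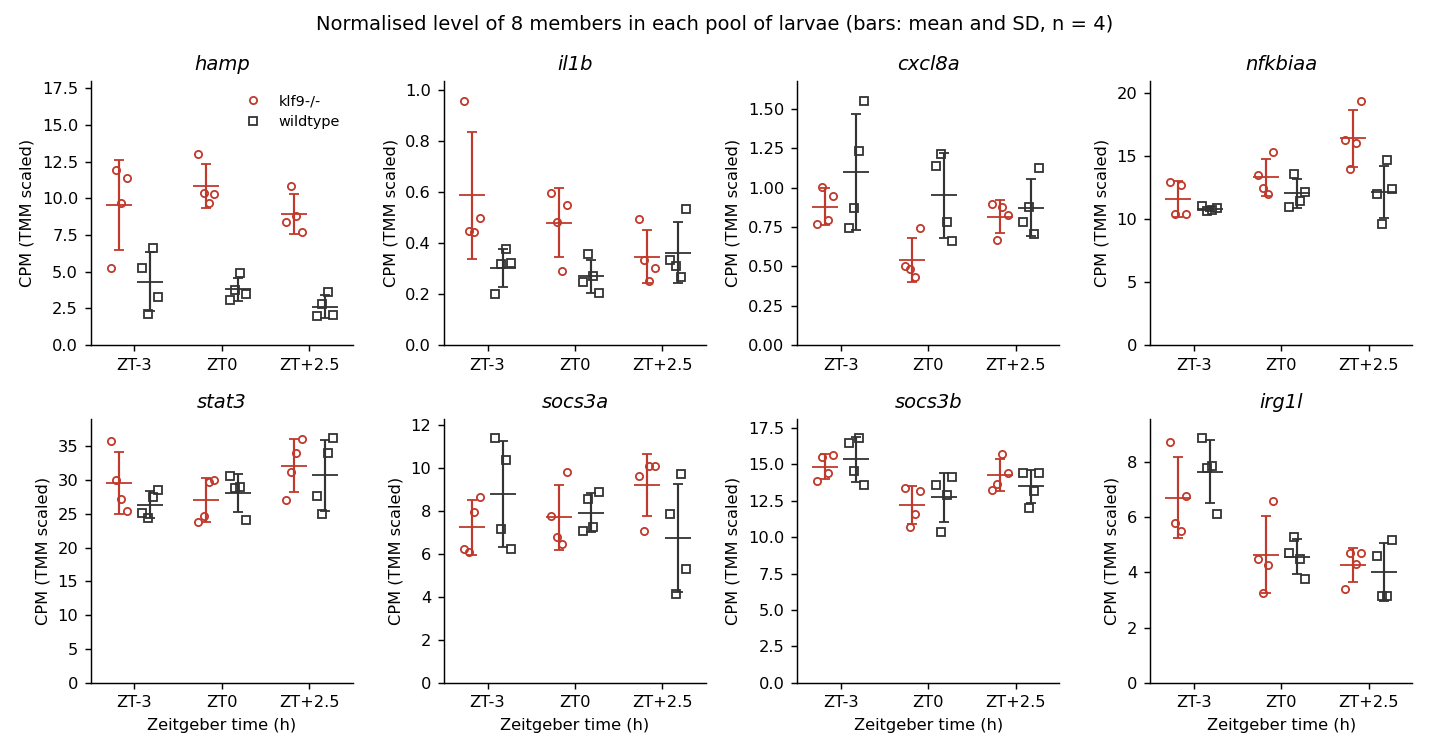
Level in CPM (vertical axes, each starting at 0) of the 8 members that could be tested, at ZT-3, ZT0 and ZT+2.5 (horizontal axes). Each red circle is a klf9-/- pool and each black square a wildtype pool, with the mean and SD of 4 pools as a horizontal line and bars. hamp in klf9-/- lay above wildtype at ZT0 and ZT+2.5 without overlap, and irg1l was highest at ZT-3 in both genotypes.

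At ZT-3, hamp was at 5.23, 12.0, 9.67 and 11.4 CPM in klf9-/- replicates 1 to 4, against 5.24, 2.12, 6.64 and 3.27 CPM in wildtype replicates 1 to 4. At ZT0 it was at 13.0, 10.4, 9.71 and 10.3 CPM in klf9-/- pools, against 3.09, 3.76, 4.89 and 3.49 CPM in wildtype pools. At ZT+2.5 it was at 8.37, 10.9, 8.79 and 7.68 CPM in klf9-/- pools, against 1.96, 2.78, 3.64 and 2.06 CPM in wildtype pools. Every klf9-/- pool exceeded every wildtype pool at ZT0 and ZT+2.5, while at ZT-3 klf9-/- replicate 1 was as low as the upper wildtype pools, and the klf9-/- value was higher in 14 of 16 pairings. Ranges without overlap were found for 11.5% of all genes tested at ZT0, for 7.64% at ZT+2.5 and for 8.64% at ZT-3.

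The log2 fold change of hamp was 1.40 at ZT0 (SE 0.142, adjusted p = 0.00075) and 1.77 at ZT+2.5 (SE 0.216, adjusted p = 0.0083). At ZT-3 it was 1.15 (SE 0.388, 95% interval 0.23 to 2.07) and missed the threshold (adjusted p = 0.16). Without wildtype replicate 3 of that time, the highest of its group, the value was 1.46 (adjusted p = 0.093). Over all time points hamp rose by a log2 fold change of 1.43 in klf9-/- larvae (SE 0.171, adjusted p = 2.7e-06), or 2.7-fold. In the order of the 6 group means, the klf9-/- groups of ZT0 (10.9 ± 1.48 CPM, mean ± SD, n = 4), ZT-3 (9.56 ± 3.05) and ZT+2.5 (8.93 ± 1.38) stood above the wildtype groups of ZT-3 (4.32 ± 2.01), ZT0 (3.81 ± 0.773) and ZT+2.5 (2.61 ± 0.780). Neighbours in this order overlapped except where the lowest klf9-/- group met the highest wildtype group.

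**Figure D2:**
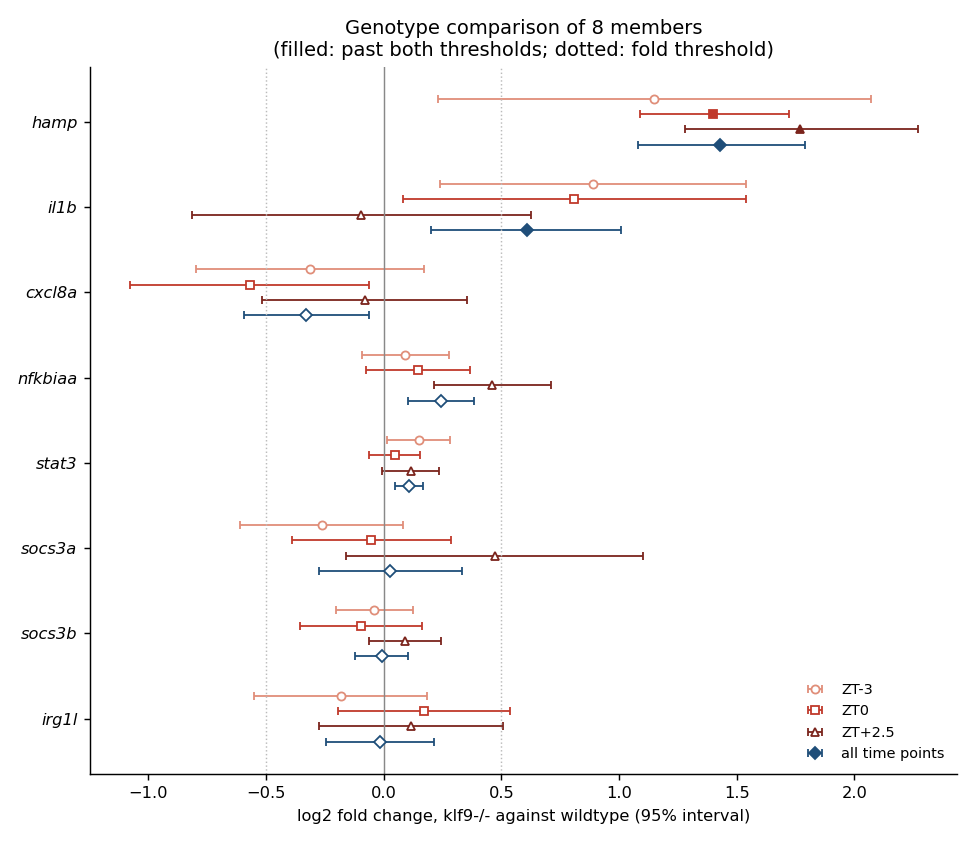
Log2 fold change of each tested member in klf9-/- against wildtype larvae (horizontal axis), with its 95% interval as a bar, at ZT-3 (circles), ZT0 (squares), ZT+2.5 (triangles) and over all time points (diamonds). Filled symbols passed both thresholds, and dotted lines mark log2 fold changes of -0.5 and 0.5. The filled symbols are those of hamp at ZT0, ZT+2.5 and over all time points and of il1b over all time points.

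Hepcidin is made mainly by hepatocytes, so hamp was set beside other liver genes. Of 22 other acute phase genes of the liver listed, 15 were among the counted genes and 13 could be tested. Of these 13, 7 were higher in klf9-/- larvae over all time points and 0 lower. Among all genes tested, 4.91% were called in either direction. The median log2 fold change was 0.52 over the 13 genes and 0.01 over all genes tested. The largest changes were those of crp2, of the C-reactive protein family (log2 fold change 2.42, SE 0.198, adjusted p = 2.3e-08), of cp, which encodes the copper-carrying ferroxidase ceruloplasmin (1.01, SE 0.12, adjusted p = 2.8e-06), of hp, which encodes the hemoglobin-binding haptoglobin (0.69, SE 0.27, adjusted p = 0.06), and of itih3a, of the inter-alpha-trypsin inhibitor heavy chains (0.63, SE 0.132, adjusted p = 0.0011). Without wildtype replicate 1 of ZT+2.5, 4 of the 13 were called, and the haptoglobin call was among those lost (0.65, adjusted p = 0.10). Wildtype pools held 15.9 to 22.8 CPM of hp at ZT-3 and 20.1 to 22.1 CPM at ZT0. At ZT+2.5 they ranged from 0.363 to 27.2 CPM, so hp was nearly absent from the lowest wildtype pool there. Reads that the copies of the crp family share may be split between them by the counting, so that single crp genes are uncertain. crp2 was at 22.4 ± 2.40, 36.0 ± 4.29 and 37.8 ± 4.23 CPM in klf9-/- pools at ZT-3, ZT0 and ZT+2.5, against 6.32 ± 1.06, 5.65 ± 2.67 and 5.18 ± 2.80 CPM in wildtype pools (SD, n = 4 each). crp1 and crp3 had log2 fold changes of -0.19 and -0.35 over all time points, inside the fold threshold. At single times, 2, 8 and 2 of the 13 genes were higher at ZT-3, ZT0 and ZT+2.5. Among all genes tested, 2.92%, 3.43% and 2.28% were called in either direction at these times. Only 1 of the 13 genes was lower, crp3 at ZT-3 (-0.57, SE 0.161, adjusted p = 0.093). It is named after its values were seen, and its call was lost in 10 alternatives.

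**Figure D3:**
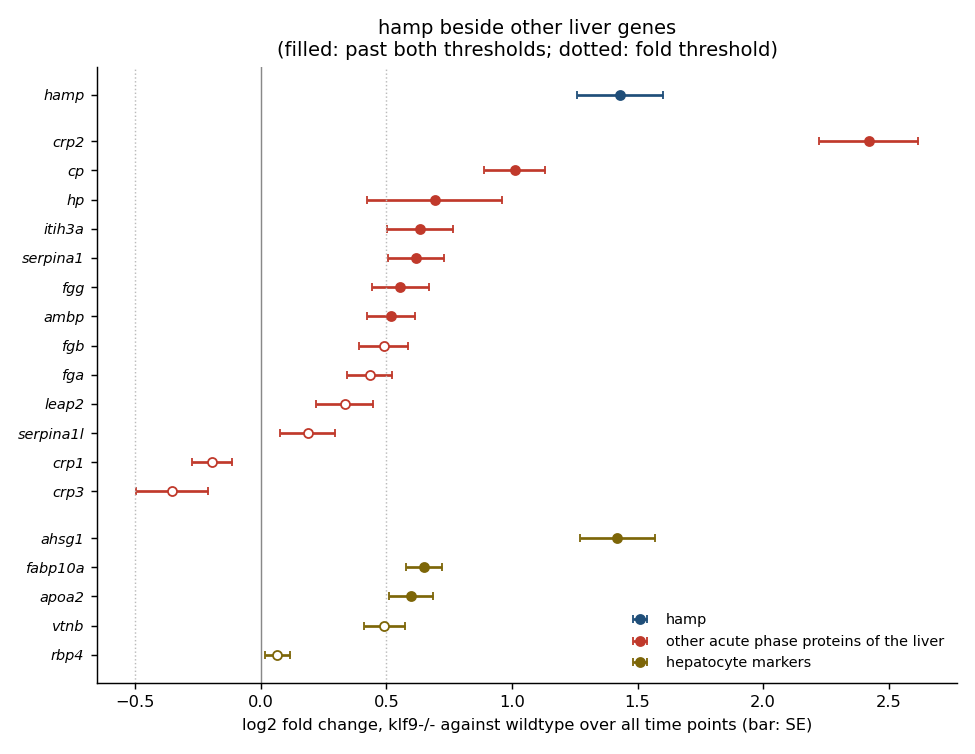
Log2 fold change over all time points in klf9-/- against wildtype larvae (horizontal axis, bar: SE) of hamp (blue), of the 13 tested acute phase genes of the liver (red) and of 5 hepatocyte markers (olive). Filled circles passed both thresholds, and dotted lines mark -0.5 and 0.5. hamp at 1.43 lay below crp2 at 2.42, beside the hepatocyte marker ahsg1 at 1.42 and above cp at 1.01.

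Of 5 markers of the hepatocyte, 3 were also higher in klf9-/- larvae over all time points and 0 lower, against 4.91% of all genes tested that were called in either direction: ahsg1 (log2 fold change 1.42, SE 0.151, adjusted p = 6.3e-07) and fabp10a (0.65, SE 0.0728, adjusted p = 8e-07) encode the plasma protein fetuin A and the liver fatty acid binding protein, and apoa2 (0.60, SE 0.0869, adjusted p = 2e-05) an apolipoprotein. Without the PC1 covariate apoa2 was at 0.47, inside the fold threshold. No marker was at 0 in any group. Across the 24 pools, hamp and the summed markers had a Pearson r of 0.44, and of -0.02 after centring on the 6 group means. PC1 was not removed from either r. From replicate 1 to 4 of ZT-3, the marker sum rose from 1550 to 2740 CPM in wildtype, with PC1 scores from -1.15 to 0.92. In klf9-/- it fell from 3380 to 2020 CPM, with scores from 0.88 to -1.79. The centred r of hamp with PC1 was -0.21, so the r of -0.02 cannot show whether hamp followed hepatocyte content. The summed level of the markers was 2020 to 3380, 2780 to 3660 and 3110 to 3740 CPM in klf9-/- pools at ZT-3, ZT0 and ZT+2.5, against 1550 to 2740, 2000 to 2750 and 1610 to 3510 CPM in wildtype pools. In a comparison chosen after the data were seen, hamp was therefore divided by this sum. Per 1000 CPM of the markers, hamp was at 3.59 ± 1.67, 3.40 ± 0.888 and 2.60 ± 0.511 CPM in klf9-/- pools at ZT-3, ZT0 and ZT+2.5, and at 2.12 ± 1.11, 1.58 ± 0.421 and 1.02 ± 0.295 CPM in wildtype pools (SD, n = 4 each). The log2 ratio of klf9-/- to wildtype was 0.78 at ZT-3 (exact permutation test, two-sided, p = 0.17), 1.11 at ZT0 and 1.39 at ZT+2.5 (exact p = 0.029 at each, the smallest that 4 against 4 pools allow). Over the 3 times together the mean log2 ratio was 1.09 (exact permutation test within time points, p = 2e-04). These ratios carry no PC1 covariate, and apoa2 made up 50.8% to 77.8% of the sum. Set against each marker alone, also chosen after the data were seen, the mean log2 ratio was 1.49 for rbp4, 1.11 for vtnb, 0.999 for apoa2 and 0.84 for fabp10a (exact permutation tests within time points, p from 1.7e-05 to 0.00082, adjusted over the 5 markers from 8.7e-05 to 0.001). Against ahsg1 alone it was 0.12 (exact permutation p = 0.56, adjusted p = 0.56). Split by time, the ahsg1 ratio was -0.024 (ZT-3), -0.141 (ZT0) and 0.535 (ZT+2.5), each without a test of its own. The ratio was higher in klf9-/- larvae for 4 single markers and for the sum of all 5, and no difference was detected relative to ahsg1. The outcome thus depended on the marker chosen, and no such ratio measures hepatocyte content. Against a marker that differs little between genotypes, such as rbp4, the ratio repeats the difference of hamp itself. Mean rbp4 in klf9-/- and wildtype pools was 431 and 460 CPM (ZT-3), 503 and 475 CPM (ZT0), and 781 and 755 CPM (ZT+2.5). The study reported larger livers in klf9-/- than in wildtype larvae of this age, measured by confocal imaging of other larvae. It also reported liver clusters of a published cell atlas as overrepresented in the mutants, assuming no marked ectopic expression of marker genes. The part of hepatocyte content in the hamp difference was not tested here.

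**Figure D4:**
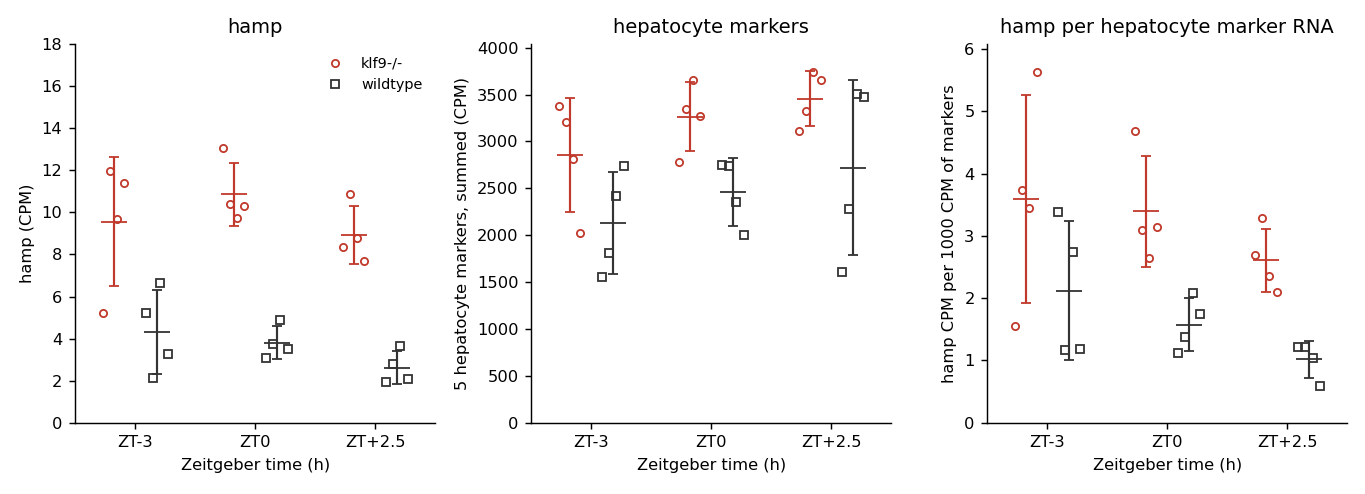
hamp in CPM (left), the summed CPM of 5 hepatocyte markers (middle) and hamp per 1000 CPM of these markers (right) at ZT-3, ZT0 and ZT+2.5. Red circles are klf9-/- pools and black squares wildtype pools, with the mean and SD of 4 pools. Per marker RNA the groups did not overlap at ZT0 (2.65 to 4.69 in klf9-/-, 1.12 to 2.08 in wildtype) and ZT+2.5 (2.10 to 3.28 in klf9-/-, 0.594 to 1.22 in wildtype).

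Hepcidin acts on iron, and 0 of 10 genes of iron handling were called over all time points (0 to 2 when single libraries were left out). At the adjusted p alone, without the fold threshold, 9 of these 10 genes differed, against 36% of all genes tested. The median log2 fold change was -0.096 over the 10 genes and 0.01 over all genes tested. Among the iron genes, slc40a1, which encodes ferroportin, the target of hepcidin, had a log2 fold change of 0.07 (SE 0.0293, adjusted p = 0.073). The transferrin receptor gene tfr1a, chosen after its values were seen, was called lower at ZT+2.5 (-0.58, SE 0.115, adjusted p = 0.035), the sole iron gene called between genotypes at any time. With same-numbered pools of the 2 genotypes as a block, its value was -0.44 (adjusted p = 0.27), and the call was also lost without the PC1 covariate (-0.61, adjusted p = 0.22) and without klf9-/- replicate 1, 3 or 4 or wildtype replicate 3 of that time (-0.59 to -0.48). By group means, tfr1a was lower in klf9-/- pools at ZT-3 (19.6 against 24.1 CPM) and ZT0 (19.2 against 29.7 CPM) too, without a call. Another transferrin receptor gene, tfr1b, also chosen after its values were seen, had lower klf9-/- means at each time, without a call. They were 49.2 against 59.0 CPM (ZT-3), 54.9 against 78.8 CPM (ZT0) and 43.55 against 63.95 CPM (ZT+2.5). The mean of tfr2 was higher in klf9-/- pools at each time.

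il1b, the cytokine gene of interleukin 1 beta, had few reads, 11 to 46 counts in each library. At ZT-3 it was at 0.958, 0.445, 0.444 and 0.498 CPM in klf9-/- replicates 1 to 4, against 0.199, 0.317, 0.375 and 0.320 CPM in wildtype replicates 1 to 4. At ZT0 it was at 0.596, 0.484, 0.289 and 0.548 CPM in klf9-/- pools, against 0.246, 0.356, 0.273 and 0.204 CPM in wildtype pools. At ZT+2.5 it was at 0.492, 0.335, 0.251 and 0.304 CPM in klf9-/- pools, against 0.335, 0.311, 0.267 and 0.534 CPM in wildtype pools. The groups did not overlap at ZT-3, overlapped by 1 klf9-/- pool at ZT0 and lay on top of each other at ZT+2.5, with the klf9-/- value higher in 16, 15 and 6 of 16 pairings. Ranges without overlap were found for 8.64% of all genes tested at ZT-3. Over all time points il1b rose by a log2 fold change of 0.61 in klf9-/- larvae (SE 0.197, 95% interval 0.20 to 1.01, adjusted p = 0.022), and the call was lost without klf9-/- replicate 1 of ZT-3, where the value was 0.44 (adjusted p = 0.085). At single times no value passed: it was 0.89 at ZT-3 (SE 0.294, adjusted p = 0.12), 0.81 at ZT0 (SE 0.329, adjusted p = 0.16) and -0.10 at ZT+2.5 (SE 0.321, adjusted p = 0.91). Without klf9-/- replicate 2 of ZT-3, the value there was 1.04 (adjusted p = 0.089).

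cxcl8a encodes a chemokine that draws neutrophils, and its mean was lower in klf9-/- larvae at each time. At ZT0 it was at 0.506, 0.484, 0.433 and 0.746 CPM in klf9-/- replicates 1 to 4, against 1.14, 1.22, 0.782 and 0.664 CPM in wildtype replicates 1 to 4, and the klf9-/- value was lower in 15 of 16 pairings. Its means were 0.880 ± 0.115, 0.542 ± 0.139 and 0.817 ± 0.103 CPM in klf9-/- pools at ZT-3, ZT0 and ZT+2.5, against 1.1 ± 0.366, 0.951 ± 0.269 and 0.873 ± 0.183 CPM in wildtype pools (SD, n = 4 each). The ranges overlapped at each time. The log2 fold change was -0.57 at ZT0 (SE 0.229, adjusted p = 0.16) and -0.33 over all time points (SE 0.129, adjusted p = 0.057), which passed the adjusted p but not the fold threshold. il1b and cxcl8a thus had opposite signs over all time points, though cxcl8a was not called.

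nfkbiaa, the inhibitor of NF-kB, was at 16.2, 13.9, 16.1 and 19.4 CPM in klf9-/- replicates 1 to 4 at ZT+2.5, against 11.9, 9.60, 14.7 and 12.4 CPM in wildtype replicates 1 to 4. The lowest klf9-/- pool lay below 1 wildtype pool, so that the klf9-/- value was higher in 15 of 16 pairings. Its log2 fold change there was 0.46 (SE 0.111, adjusted p = 0.058), past the adjusted p but not the fold threshold. With same-numbered pools as a block the adjusted p was 0.15. Without klf9-/- replicate 2 or wildtype replicate 3 of that time the value passed both thresholds (0.51 and 0.55). At the adjusted p alone, 2 of 8 members differed at ZT+2.5 (6.69% of all genes tested), 1 of 8 at ZT0 (13.6%) and 0 of 8 at ZT-3 (8.83%). The nfkbiaa ranges overlapped more at the other times, at 10.4 to 12.9 and 12.0 to 15.3 CPM in klf9-/- pools of ZT-3 and ZT0, against 10.7 to 11.02 and 10.96 to 13.6 CPM in wildtype pools. Over all time points the value was 0.24 (SE 0.0673, adjusted p = 0.008).

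Of the remaining members, stat3 differed at the adjusted p and the other 3 did not. stat3, the transcription factor of interleukin 6 signaling, had a log2 fold change of 0.11 over all time points (SE 0.0288, adjusted p = 0.0071), with 29.6 ± 4.18 CPM in klf9-/- pools and 28.4 ± 3.76 CPM in wildtype pools (SD, n = 12 each). The stat3 level followed PC1 within groups (Pearson r = 0.94 over 24 samples after centring on the 6 group means), and without the PC1 covariate its value was 0.06 (adjusted p = 0.62). With stat3, nfkbiaa, cxcl8a, hamp and il1b, 5 of the 8 members passed the adjusted p alone, against 36% of all genes tested. socs3a and socs3b, which encode inhibitors of cytokine receptors, had log2 fold changes of 0.03 (95% interval -0.28 to 0.33) and -0.01 (95% interval -0.12 to 0.10). irg1l, named after mammalian Irg1, which makes the metabolite itaconate in mouse macrophages, had -0.02 (95% interval -0.25 to 0.21). All 3 intervals lay inside the fold threshold in both directions. At ZT+2.5, socs3a was at 9.64, 7.10, 10.1 and 10.1 CPM in klf9-/- replicates 1 to 4, against 7.85, 4.16, 9.75 and 5.29 CPM in wildtype replicates 1 to 4 (log2 fold change 0.47, SE 0.267, adjusted p = 0.40).

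The genotype difference of the members was also compared between times of day. In the test of the interaction of genotype and time, 0 of 8 members were called by edgeR (adjusted p = 1 for each), against 0.0173% of all genes tested. At an unadjusted p under 0.05 there were 0 members as well, with the smallest p at 0.062 for nfkbiaa and 0.064 for il1b, and DESeq2's likelihood ratio test also called 0. Among all genes, 1110 had an unadjusted p under 0.05, where 1157.9 are expected by chance.

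**Figure D5:**
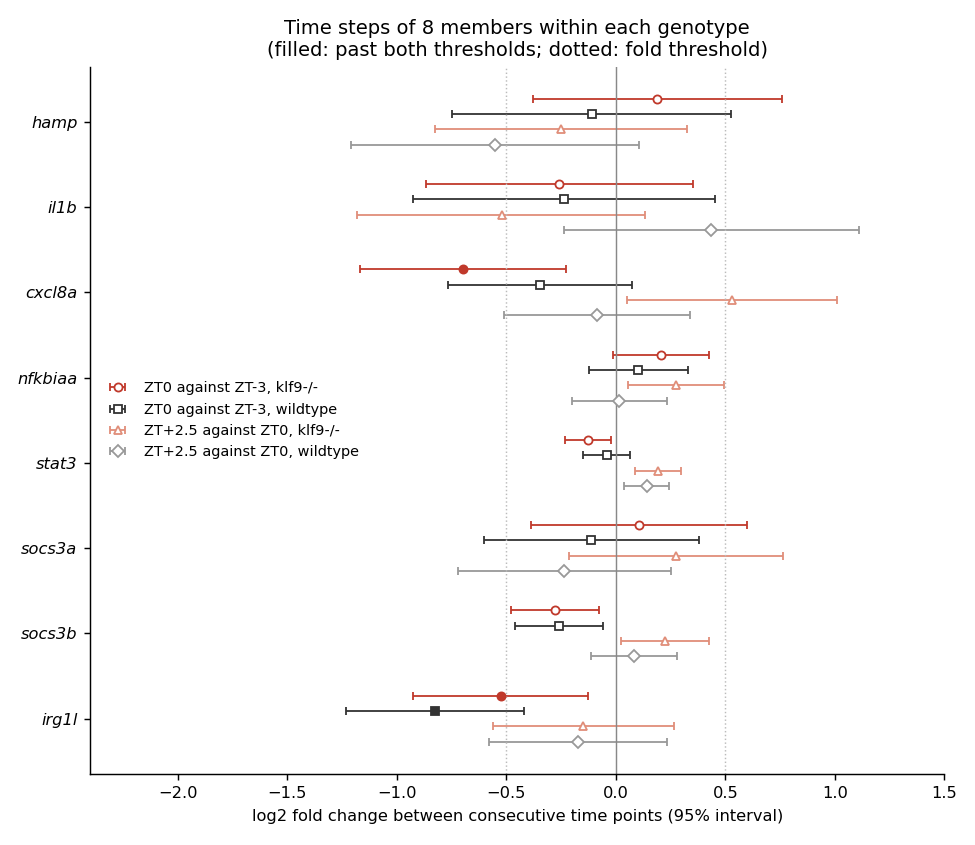
Log2 fold change between consecutive times within each genotype (horizontal axis, bar: 95% interval) for the 8 tested members: ZT0 against ZT-3 in klf9-/- (red circles) and wildtype (black squares), and ZT+2.5 against ZT0 in klf9-/- (pink triangles) and wildtype (grey diamonds). Filled symbols passed both thresholds, and dotted lines mark -0.5 and 0.5. The filled symbols are irg1l in both genotypes and cxcl8a in klf9-/-, all for ZT0 against ZT-3.

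Between ZT-3 and ZT0, irg1l fell in both genotypes. In klf9-/- pools, replicates 1 to 4, irg1l was at 8.74, 5.81, 5.49 and 6.78 CPM at ZT-3, at 4.496, 3.24, 4.28 and 6.58 CPM at ZT0 and at 3.40, 4.71, 4.30 and 4.71 CPM at ZT+2.5. In wildtype pools it was at 8.86, 7.79, 7.85 and 6.10 CPM at ZT-3, at 4.72, 5.30, 4.49 and 3.78 CPM at ZT0 and at 4.60, 3.13, 3.15 and 5.19 CPM at ZT+2.5. The ranges of ZT-3 and ZT0 overlapped in klf9-/- pools, where ZT0 replicate 4 was high, but not in wildtype pools. The share of all genes without overlap between times was not counted, so how common such a separation is remains unknown. The log2 fold change of ZT0 against ZT-3 was -0.53 in klf9-/- (SE 0.192, adjusted p = 0.083) and -0.83 in wildtype (SE 0.195, adjusted p = 0.011). The klf9-/- call was lost without the PC1 covariate and without klf9-/- replicate 1 or 4 of ZT-3 or 1, 2 or 3 of ZT0 (-0.54 to -0.40). The wildtype call held in each of the 30 alternatives tried. From ZT0 to ZT+2.5 the values were -0.15 in klf9-/- (adjusted p = 0.73) and -0.17 in wildtype (adjusted p = 0.66). Both steps use the ZT0 pools.

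cxcl8a also fell between ZT-3 and ZT0 in klf9-/- larvae (log2 fold change -0.70, SE 0.227, adjusted p = 0.047). It was at 0.770, 1.01, 0.794 and 0.948 CPM in klf9-/- replicates 1 to 4 at ZT-3, above all 4 klf9-/- pools of ZT0. Here too, the share of all genes separated in this way was not counted. The call was lost without the PC1 covariate (-0.70, adjusted p = 0.12) and without klf9-/- replicate 2 or 4 of ZT-3 or 2 or 3 of ZT0 (-0.68 to -0.56). In wildtype the step was -0.35 (SE 0.203, adjusted p = 0.36). From ZT0 to ZT+2.5, cxcl8a had 0.53 in klf9-/- (SE 0.23, adjusted p = 0.15) and -0.09 in wildtype (SE 0.205, adjusted p = 0.85). The difference between the genotypes' steps did not pass in the interaction test above (unadjusted p = 0.16). In all, 2 of 8 members were called for ZT0 against ZT-3 in klf9-/- (3.6% of all genes tested) and 1 of 8 in wildtype (2.15%). For ZT+2.5 against ZT0, 0 of 8 were called in klf9-/- (3.55%) and 0 of 8 in wildtype (3.43%).

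At the adjusted p alone, 3 of 8 members differed for ZT0 against ZT-3 in klf9-/- (16.6% of all genes tested), with socs3b as the third (-0.28, SE 0.0961, adjusted p = 0.063). In wildtype it was 1 of 8 (11.7%), and socs3b had -0.26 there (SE 0.0969, adjusted p = 0.11). For ZT+2.5 against ZT0, 2 of 8 differed in klf9-/- (16.7%), stat3 (0.19, SE 0.0505, adjusted p = 0.013) and nfkbiaa (0.28, SE 0.106, adjusted p = 0.098). In wildtype it was 1 of 8 (16.6%), stat3 (0.14, SE 0.0499, adjusted p = 0.073). Without the PC1 covariate, both stat3 steps lost this (adjusted p = 0.33 in klf9-/- and 0.71 in wildtype).

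Other genes of cytokine signaling were set beside the 4.91% of all genes called over all time points. Of 15 other cytokines and chemokines that could be tested out of 24 listed, 1 was higher in klf9-/- larvae over all time points and 1 lower, the chemokine genes ccl35.1 (log2 fold change 0.60, SE 0.242, adjusted p = 0.066) and ccl38.6 (-0.63, SE 0.199, adjusted p = 0.018). Both had under 0.5 CPM in every group mean, and the ccl35.1 call was lost when any of 6 libraries was left out (klf9-/- replicate 1 of ZT-3, 3 of ZT0 and 3 of ZT+2.5, wildtype replicate 4 of ZT-3 and 1 and 2 of ZT+2.5, 0.53 to 0.57). Of 19 tested cytokine receptors and JAK-STAT genes, 1 was higher and 0 lower: il10ra, a chain of the interleukin 10 receptor, at 0.51 (SE 0.111, adjusted p = 0.0011), just past the fold threshold. Leaving out any of 10 libraries put it at 0.472 to 0.498, just inside the threshold. Of 25 tested genes of NF-kB and Toll-like receptor signaling, 0 were called. Of 20 tested inflammatory effectors and transcription factors, 1 was higher and 0 lower: steap4, a metalloreductase of iron and copper, at 0.72 (SE 0.0602, adjusted p = 5.5e-09). At the adjusted p alone, 7 of 15, 8 of 19, 7 of 25 and 5 of 20 genes of these 4 lists differed, against 36% of all genes tested, and their median log2 fold changes were 0.18, 0.04, 0.05 and 0.04, in the order given.

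Between ZT0 and ZT+2.5, 0 of 15, 1 of 19, 1 of 25 and 1 of 20 genes of the same lists were called in klf9-/- larvae (3.55% of all genes tested) and 2 of 15, 0 of 19, 1 of 25 and 2 of 20 in wildtype (3.43%). In NF-kB signaling, rel, which encodes a subunit of NF-kB, fell between ZT0 and ZT+2.5 in klf9-/- (log2 fold change -0.92, SE 0.156, adjusted p = 0.00034) and in wildtype (-0.86, SE 0.151, adjusted p = 0.00045). cish, an inhibitor of cytokine receptor signaling, rose between ZT0 and ZT+2.5 in klf9-/- (0.73, SE 0.212, adjusted p = 0.029). By group means cish also rose in wildtype, from 13.7 to 19.6 CPM, without a call. For the same step in wildtype, the chemokine gene cxcl20 (0.56, SE 0.179, adjusted p = 0.041) and the transcription factor gene irf1b (0.72, SE 0.214, adjusted p = 0.029) rose. For that step, mmp13a, which encodes a matrix metalloproteinase (-0.80, SE 0.248, adjusted p = 0.038), and csf3b, a colony stimulating factor gene (-1.18, SE 0.395, adjusted p = 0.054), fell. Each of these wildtype calls was lost when single libraries were left out: wildtype replicate 1 or 4 of ZT0 for cxcl20 and csf3b, 2 of ZT0 for mmp13a, 1 of ZT0 for irf1b, 1 or 3 of ZT+2.5 for csf3b and 4 of ZT+2.5 for mmp13a and irf1b. By group means these genes moved the same way in klf9-/-, without a call. The klf9-/- means went from 1.77 to 2.17 CPM for cxcl20 and from 3.29 to 4.22 CPM for irf1b. For mmp13a they went from 2.55 to 2.27 CPM and for csf3b from 0.168 to 0.152 CPM. The interaction test called 0 genes in each of these lists, so no step is shown to belong to 1 genotype.

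Leukocytes are a main source of il1b and a target of cxcl8a. Of the 5 neutrophil markers and 4 macrophage markers in the table, 0 were called in any comparison (4.91% of all genes tested over all time points), and none was at 0 in any group. Their medians of log2 fold change over all time points were 0.23 and 0.24. Summed over the neutrophil list, levels were 62.6 to 88.6 CPM in klf9-/- pools and 58.1 to 82.1 CPM in wildtype pools over the 3 times. For the macrophage list they were 18.7 to 38.3 CPM in klf9-/- pools and 22.1 to 34.5 CPM in wildtype pools. Most of the macrophage sum was csf1ra, with group means of 17.6 to 20.7 CPM. By group means mpeg1.1, marco and cd74a were higher in klf9-/- pools at each time, with ranges that overlapped. The csf1ra mean was higher at ZT0 and ZT+2.5 and lower at ZT-3. At ZT-3, where il1b did not overlap, the summed neutrophil markers did not overlap either, at 70.0 to 78.6 CPM in klf9-/- pools and 59.2 to 65.4 CPM in wildtype pools. Of all genes tested at that time, 8.64% had ranges without overlap. At ZT0, where il1b was higher in 15 of 16 pairings, the neutrophil sums overlapped, with medians of 72.0 CPM in klf9-/- and 75.6 CPM in wildtype. Across the 24 pools, il1b and the neutrophil sum had a Pearson r of 0.27, and of 0.295 after centring on the group means. The part of neutrophils in the il1b difference was not tested. Of 4 markers each of the epidermis and the intestine, anxa1c was lower (-1.35, SE 0.131, adjusted p = 2.1e-07) and apoa4a higher (0.76, SE 0.169, adjusted p = 0.0017) over all time points, the apoa4a call being lost without the PC1 covariate (0.38, adjusted p = 0.48).

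The members did not form a common pattern across the 24 pools. Pearson's r between members, over TMM log2 CPM with a prior count of 2, was largest for socs3b and irg1l (0.54), socs3a and nfkbiaa (0.51) and nfkbiaa and stat3 (0.50), and most negative for cxcl8a and hamp (-0.42). These points share libraries, time and genotype, and after centring on the 6 group means the same pairs had 0.33, 0.62, 0.46 and -0.05. Among all genes tested, the levels most like hamp were those of TMC1 (r = 0.90, and 0.60 after centring), crp2 (0.87 and 0.32) and si:dkey-234h16.7 (0.87 and 0.57). The levels most like socs3a were those of dusp1 (0.81 and 0.88), a phosphatase gene induced by stress, gadd45ba (0.78 and 0.80) and nfkbiab (0.65 and 0.80), a gene of the same inhibitor family as nfkbiaa. For nfkbiaa they were cybb (0.79 and 0.54), which encodes a subunit of the phagocyte oxidase, bdh1 (0.78 and 0.56) and spic (0.78 and 0.75). For il1b they were rgs12b (0.73 and 0.63), CABZ01051877.1 (0.70 and 0.50) and CABZ01101813.1 (0.69 and 0.64), and for cxcl8a ralba (0.77 and 0.70), orai1a (0.76 and 0.55) and chst14 (0.74 and 0.58). irg1l was closest to si:ch211-153b23.3 (0.89 and 0.88), si:ch211-153b23.4 (0.87 and 0.73) and tph1a (0.87 and 0.63). socs3b was closest to klhl38b (0.79 and 0.60), trim63a (0.76 and 0.54) and kcna6a (0.75 and 0.71). stat3 was closest to zgc:110626 (0.93 and 0.92), snx9a (0.92 and 0.92) and sh3gl1b (0.92 and 0.90), and it was the member that followed PC1 most closely (r = 0.83).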

How the data were processed

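Per the labels and methods, single-end reads of 24 libraries were trimmed with Trim Galore 0.6.5, aligned with STAR 2.7.5c and counted per gene with RSEM 1.3.3 on Ensembl release 101. Ensembl IDs that share a symbol were summed. The authors deposited these expected counts without normalization for 31242 genes (18% of values are not whole), and regularized log2 values (rlog) of 25362 genes made with DESeq2 1.30.1. They also deposited 4 tables of their own genotype comparisons (fold changes and p-values), which were not used. Strand-specific counting is not given in the sources used here.

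Counts were rounded, filtered with filterByExpr by group (minimum count 10), scaled by TMM and tested with edgeR 4.0.16 (R 4.3.3) by the robust quasi-likelihood test. Fits used the 8 samples of each time, all 24 with time as a factor, or 6 group means for the interaction and the time steps. PC1 of the Z-transformed rlog values was the covariate, and p-values were adjusted by Benjamini-Hochberg over all genes tested. Intervals and count limits cover counting or model error only. Between replicate pools of a group, the squared difference relative to counting noise, averaged over genes, was 7.37 to 91.1 (36 pairs). This average does not give the noise of any single gene, such as il1b with its few counts. Same-numbered klf9-/- and wildtype pools deviated together at ZT+2.5 (correlations 0.25 to 0.47) and not at ZT-3 or ZT0 (-0.35 to 0.02). PC1 was not removed from these correlations. From replicate 1 to 4 its score rose in both genotypes at ZT+2.5 (-1.37 to 1.12 in klf9-/-, -0.85 to 1.62 in wildtype). The genotypes ran in opposite directions at ZT-3 (0.88 to -1.79, -1.15 to 0.92) and ZT0 (-1.29 to 0.73, 1.44 to -0.72). The correlations thus cannot tell a pairing by number from PC1. Values with the number as a block are given beside ZT+2.5 results where they change a call. The numbers are not said to mark a shared dish or day.

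The members, lists, thresholds and tests were chosen with earlier results of these data known. Named are all members, up to 4 genes of each list that were called over all time points, and the 3 genes most like each tested member. Calls in a time step are named for the lists of cytokine signaling, inflammation and iron handling. They are not named for the cell type markers or for the immediate early and glucocorticoid-responsive genes. ptgs2b, tlr2 and hjv, called in single time steps of klf9-/- larvae, are dealt with under other observations. Alternatives were no PC1 covariate, PC1 of the 8 samples, DESeq2 size factors, DESeq2 1.42.0, no filter, no fold threshold, all 24 samples, the replicate block and each replicate left out. The scripts were tested on simulated counts.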

Additional observations from a re-analysis of the deposited data

Results flagged for a closer look

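Within the groups of 4 pools, 3 of 60 sets of values (10 members in 6 groups) had a sample far from the others, where 3 are expected by chance. il1b in klf9-/- replicate 1 of ZT-3 was at 0.958 CPM, with the next highest pool of its group at 0.498 CPM. socs3a in klf9-/- replicate 2 of ZT+2.5 was at 7.10 CPM, with the next lowest at 9.64 CPM. saa in wildtype replicate 3 of ZT0 was at 0.0364 CPM, equal to 2 counts, with the next lowest at 0.0851 CPM.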

How the results depend on the processing

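The calls of hamp over all time points, at ZT0 and at ZT+2.5 held in every alternative fit. The marker ratios were judged otherwise, by an exact permutation p that was unadjusted or adjusted over the markers alone, not over all genes. By this looser rule the differences held relative to the marker sum. Over all time points they held relative to each single marker except ahsg1 (0.12). Relative to ahsg1, the values of single times were -0.141 (ZT0) and 0.535 (ZT+2.5), and these were not tested. Leaving out single libraries gave 0 to 1 member called at ZT-3, 1 to 2 at ZT+2.5, 1 to 2 over all time points and 0 to 2 for ZT0 against ZT-3 in klf9-/-. With all 24 samples in the fit there were 2 at ZT-3 (hamp 1.15, il1b 0.92) and 3 at ZT0 (hamp, il1b 0.90, cxcl8a -0.67). Without the fold threshold there were 2 at ZT+2.5, 5 over all time points, and 2 in klf9-/- and 1 in wildtype for ZT+2.5 against ZT0. Without the PC1 covariate there were 0 for ZT0 against ZT-3 in klf9-/-. With same-numbered pools as a replicate block the count of members called did not change (0, 1, 1 and 2 at ZT-3, ZT0, ZT+2.5 and over all time points), and il1b at ZT+2.5 reversed to 0.00393. Leaving out single libraries, the signs of small values reversed, with ranges of -0.324 to 0.217 for il1b and -0.182 to 0.0681 for cxcl8a at ZT+2.5, and, over all time points, of -0.0599 to 0.0902 for socs3a, -0.0337 to 0.0115 for socs3b and -0.0784 to 0.0301 for irg1l. For ZT+2.5 against ZT0, cxcl8a in wildtype ranged from -0.183 to 0.0456, and irg1l in klf9-/- from -0.267 to 0.0493, the highest without klf9-/- replicate 4 of ZT0.

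Over all genes, calls at ZT-3, ZT0 and ZT+2.5 numbered 661, 772 and 514, against 347, 473 and 144 without the PC1 covariate, and 774 at ZT+2.5 with all 24 samples. They were 402, 493 and 260 without klf9-/- replicate 3, 4 and 3 of those times. Without the fold threshold they were 1995, 3064 and 1506, 8339 over all time points (main 1137), and 3839, 3860, 2711 and 3843 for the steps (main 834, 823, 497 and 795, both steps of klf9-/- before wildtype). The interaction called 4 genes, 1 without PC1, 8 with the replicate block, 36 by DESeq2, 11 when klf9-/- replicate 1 of ZT+2.5 was left out and 2 when wildtype replicate 4 of ZT-3 was. The cause of these changes was not tested. Low counts limit tnfa, saa and il1b.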

Other observations

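Outside the comparisons above, 3 further genes of the cytokine signaling, inflammation and iron handling lists were called in 1 time step of klf9-/- larvae. tlr2, a Toll-like receptor gene, fell between ZT-3 and ZT0 (log2 fold change -0.94, SE 0.334, adjusted p = 0.072), as did hjv, which encodes a bone morphogenetic protein coreceptor upstream of hepcidin (-0.53, SE 0.136, adjusted p = 0.011). ptgs2b, a cyclooxygenase gene, rose between ZT0 and ZT+2.5 (0.54, SE 0.19, adjusted p = 0.069). The tlr2 and ptgs2b calls were each lost in several alternatives that left out 1 library (tlr2 -0.93 to -0.77, ptgs2b 0.50 to 0.58), and the hjv call without klf9-/- replicate 2 of ZT-3 or 3 of ZT0 (-0.43 and -0.45). In wildtype these 3 steps were not called. By group means hjv fell in wildtype too, from 12.4 to 9.10 CPM, while tlr2 rose from 0.168 to 0.229 CPM and ptgs2b went from 3.22 to 3.14 CPM.

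At single times, and chosen after their values were seen, stat1a was higher in klf9-/- larvae at ZT0 (0.55, SE 0.0566, adjusted p = 0.00059) and il6r, the interleukin 6 receptor gene, at ZT+2.5 (0.75, SE 0.13, adjusted p = 0.019). Without klf9-/- replicate 4 of ZT0, stat1a was at 0.47, inside the fold threshold, and without the PC1 covariate the il6r value was 0.67 (adjusted p = 0.25). By group means both genes were higher in klf9-/- pools at the other times too, without a call. For stat1a the means were 63.5 against 48.6 CPM (ZT-3) and 70.5 against 58.9 CPM (ZT+2.5). For il6r they were 5.12 against 4.04 CPM (ZT-3) and 5.68 against 4.62 CPM (ZT0). leap2, an antimicrobial peptide gene of the liver, was higher at ZT+2.5 (0.73, SE 0.098, adjusted p = 0.0083), and at 0.48 (adjusted p = 0.84) without the covariate. Of 4 glucocorticoid-responsive genes, 1 was called over all time points, mt2, which was lower in klf9-/- larvae. Its log2 fold change was -0.713 to -0.662 in 30 alternatives. The other genes of that list did not share this direction, and the list median was 0.115, against 0.01 over all genes tested. By group means fkbp5 was higher in klf9-/- pools at each time. The means of tsc22d3 and dusp1 were higher at ZT0 and ZT+2.5 and lower at ZT-3. Of 8 immediate early genes, 0 were called over all time points, against 4.91% of all genes tested.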
